A study of Homo sapiens with 16 samples.

Results

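Tumour cells carry surface and secreted proteins that hold immune cells in check, and the mRNAs of 8 of them are described here in MDA-MB-231 cells: CD274, PDCD1LG2, CD47, CD276, NT5E, PVR, NECTIN2 and LGALS9. They were picked by symbol through their Ensembl identifiers, and all 8 symbols were found among the 60719 identifiers of the count tables. CD274 (PD-L1) and PDCD1LG2 (PD-L2) are the ligands of PD-1, an inhibitory receptor of T cells. CD47 binds SIRPA on macrophages and tells them not to engulf the cell. CD276 (B7-H3) belongs to the B7 family of CD274 and restrains T cells and natural killer cells, and NT5E (CD73) is an ectoenzyme that turns AMP into adenosine, which dampens lymphocytes. PVR (CD155) and NECTIN2 (CD112) are adhesion molecules that bind the inhibitory receptor TIGIT and the activating receptor CD226, and LGALS9 (galectin-9) is a lectin that binds TIM-3. CD274 is known for its induction by interferon gamma through JAK kinases and IRF1, and CD274 and CD47 have been proposed as direct targets of Myc.

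MDA-MB-231 is a line of mesenchymal-like human breast cancer cells that lack hormone receptors. In the TKO cells the TXNIP gene, whose product limits glucose uptake, was disrupted by CRISPR/Cas9 with guides of the GeCKO library, and such knockout lines were grown out from single cells, so that the loss of TXNIP and what else sets a clone apart from its parent cannot be told apart. Neither untreated population, parental MDA-MB-231 (2 libraries) nor TKO (2), received siRNA. In the other 4 groups of 3 libraries each, both populations were given a non-targeting siRNA (siNT) or an siRNA against MYC (siMyc) for 48 hours. The labels do not say which cultures the siRNA libraries came from, so their p-values measure the spread between these libraries. Counting was by single reads in the untreated groups and by read pairs in the siRNA groups, so a difference between an untreated and an siRNA group cannot be told apart from this difference in sequencing. Because RNA was taken from whole cultures, fewer cells with a transcript and less of it per cell cannot be told apart.

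On the human genome GRCh38, CD274 (ENSG00000120217) lies on chromosome 9 from 5450503 to 5470566, and PDCD1LG2 (ENSG00000197646) lies on the same strand downstream of it, from 5510531 to 5571282. PVR (ENSG00000073008) and NECTIN2 (ENSG00000130202) also share a chromosome, 19, from 44643798 to 44666162 and from 44846175 to 44889223. CD47 (ENSG00000196776) spans 108043091 to 108091862 of chromosome 3. CD276 (ENSG00000103855) spans 73683966 to 73714514 of chromosome 15. NT5E (ENSG00000135318) spans 85449584 to 85495791 of chromosome 6, and LGALS9 (ENSG00000168961) spans 27629798 to 27649560 of chromosome 17. The exon length of each of the 8 genes was the same in both annotation releases used for counting.

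Promoter windows from RefSeq (GRCh38.p14, 300 bases that lie mostly before the start of the transcript) were found for 7 of the 8 genes, with PDCD1LG2 as the exception. They are shown for the proposed Myc targets CD274 and CD47, for NT5E, and for PVR and NECTIN2, whose mRNAs moved in opposite directions after siMyc. Each runs 5′ to 3′ along the strand of its gene. Capitals mark CACGTG (the canonical E-box of Myc and MAX) and CACGCG (a variant E-box), each searched on both strands. Their matches do not overlap one another in the windows shown.
CD274, chr9:5450292-5450591, plus strand: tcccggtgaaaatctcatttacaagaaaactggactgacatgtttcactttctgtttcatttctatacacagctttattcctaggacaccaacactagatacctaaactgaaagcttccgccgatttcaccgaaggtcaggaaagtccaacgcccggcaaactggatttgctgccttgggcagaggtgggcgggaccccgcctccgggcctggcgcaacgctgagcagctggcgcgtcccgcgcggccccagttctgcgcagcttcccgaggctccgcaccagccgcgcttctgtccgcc
CD47, chr3:108090982-108091281, minus strand: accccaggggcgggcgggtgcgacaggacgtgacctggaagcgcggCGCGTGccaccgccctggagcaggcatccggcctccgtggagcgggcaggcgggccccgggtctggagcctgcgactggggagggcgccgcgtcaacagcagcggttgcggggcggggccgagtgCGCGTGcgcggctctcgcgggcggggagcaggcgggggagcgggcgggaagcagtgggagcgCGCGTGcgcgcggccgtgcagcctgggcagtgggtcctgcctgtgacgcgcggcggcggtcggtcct
NT5E, chr6:85449833-85450132, plus strand: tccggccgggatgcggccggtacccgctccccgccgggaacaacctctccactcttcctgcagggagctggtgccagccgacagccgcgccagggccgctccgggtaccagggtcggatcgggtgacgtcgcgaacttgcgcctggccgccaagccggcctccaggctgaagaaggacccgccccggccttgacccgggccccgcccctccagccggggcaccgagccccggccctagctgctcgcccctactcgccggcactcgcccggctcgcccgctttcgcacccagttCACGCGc
PVR, chr19:44643660-44643959, plus strand: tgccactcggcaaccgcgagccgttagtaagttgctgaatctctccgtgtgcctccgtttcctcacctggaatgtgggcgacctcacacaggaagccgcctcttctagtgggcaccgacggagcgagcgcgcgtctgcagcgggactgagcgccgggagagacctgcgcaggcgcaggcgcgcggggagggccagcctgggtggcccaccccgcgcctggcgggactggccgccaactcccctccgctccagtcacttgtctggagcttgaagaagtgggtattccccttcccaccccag
NECTIN2, chr19:44846047-44846346, plus strand: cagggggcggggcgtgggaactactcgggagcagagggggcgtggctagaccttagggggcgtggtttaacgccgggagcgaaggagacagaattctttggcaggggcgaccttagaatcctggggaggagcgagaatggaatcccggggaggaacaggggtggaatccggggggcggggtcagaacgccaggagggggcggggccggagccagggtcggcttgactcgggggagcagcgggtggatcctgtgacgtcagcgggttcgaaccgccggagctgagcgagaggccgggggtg
CACGTG was in 0 of the members' windows, against 7.26% of 35116 windows of the same length. The CD47 window held CACGCG at 3 places, which start 204, 79 and 17 bases before the transcript start, and the NT5E window held it at 1 place within the transcript. CACGCG was in 11.4% of all windows. The windows of CD274, PVR, NECTIN2, CD276 and LGALS9 held neither. A match of letters says nothing of binding in these cells, and a window without a match says nothing of sites elsewhere.

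The libraries held between 18953668 and 59799444 counts. Levels are given as CPM, counts relative to library size scaled by edgeR's TMM factors over all 16 libraries, and levels of different genes are compared as TPM, which also divides by gene length. TXNIP lay between 283 and 467 CPM in the parental libraries and between 6.54 and 10.2 in the siRNA-treated TKO libraries, but at 12.4 and 45.5 in the untreated TKO libraries, where its fold change did not pass the test (-3.29, SE 0.65, adjusted p = 0.0588 by edgeR). MYC fell by 1.21 (SE 0.06, adjusted p = 1.7e-11) after siMyc in TKO and by 0.96 (SE 0.09, adjusted p = 0.0296) in parental MDA-MB-231, on the log2 scale. VIM, CD44 and EGFR were at 135.6 CPM or more in every library, and ESR1 and PGR were at or below 0.305 CPM. Other luminal and epithelial genes that were listed as low or absent in this line were detected. ERBB2 was at 76.2 to 106 CPM, GATA3 at 11.6 to 30.7 and EPCAM at 12.2 to 31.3. CDH1 differed by population, at 4.13 to 9.42 CPM in the parental libraries and 0.267 to 1.08 in the TKO libraries, with and without siRNA. Of 12 markers of immune, blood and liver cells, CD2, MS4A1, NKG7 and HBB were at 0 in every library. The summed level of the 12 was 7.51 to 8.70 CPM in parental MDA-MB-231 and 7.30 to 10.1 in TKO. It was 12.6 to 12.99 in TKO+siNT, 16.7 to 20.3 in TKO+siMyc, 20.7 to 26.1 in parental MDA-MB-231+siNT and 28.9 to 33.6 in parental MDA-MB-231+siMyc, mostly CD14 and CSF1R. The leukocyte marker PTPRC was at 0.580 to 1.47 CPM in the parental libraries, with and without siRNA, and did not exceed 0.137 in the TKO libraries. The T-cell marker CD3D was at 1.07 to 1.66 CPM in parental MDA-MB-231+siNT, 1.41 to 2.28 in parental MDA-MB-231+siMyc and at or below 0.0503 in the other groups. The part of these 12 genes in the differences below was not tested.

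Some libraries stood apart. Parental MDA-MB-231+siNT replicate 1 and parental MDA-MB-231+siMyc replicate 3 deviated from their groups together (r = 0.87 across genes, which are not independent replicates), and their counts differed from those of the other replicates by a chi-square of 106 to 122 per gene, against 2.25 to 14.3 between other replicates of the siRNA groups. Between the untreated TKO replicates it was 43.4, and between the parental MDA-MB-231 replicates 2.10. For the immune-regulating genes named at the start, tests of fold change that rest on these libraries are given with and without them. Results for the other genes named below, for the genes around each member and for correlations are given with all libraries only. The part of these libraries in those results was not tested.

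Per length, NT5E was the most abundant of the 8 mRNAs in 5 of the 6 groups. It was at 931 ± 24.1 TPM (SD, n = 2) in parental MDA-MB-231 and at 483 ± 21.3 (SD, n = 3) in TKO+siNT. In parental MDA-MB-231+siMyc, NECTIN2 (295 ± 6.84, SD, n = 3) stood above NT5E (279.8 ± 47.4, SD, n = 3), though the 2 genes overlapped in both parental siRNA groups. NECTIN2 was otherwise next, at 151 to 245 TPM on average. PVR, CD47 and CD276 lay between 36.1 and 128 TPM on average, and CD274 fell within that range in the untreated groups only. PDCD1LG2 lay below CD274 in every group, at 8.72 to 16.1 TPM on average, and LGALS9 was the lowest in every group, at 0.25 to 7.65.

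**Figure D1:**
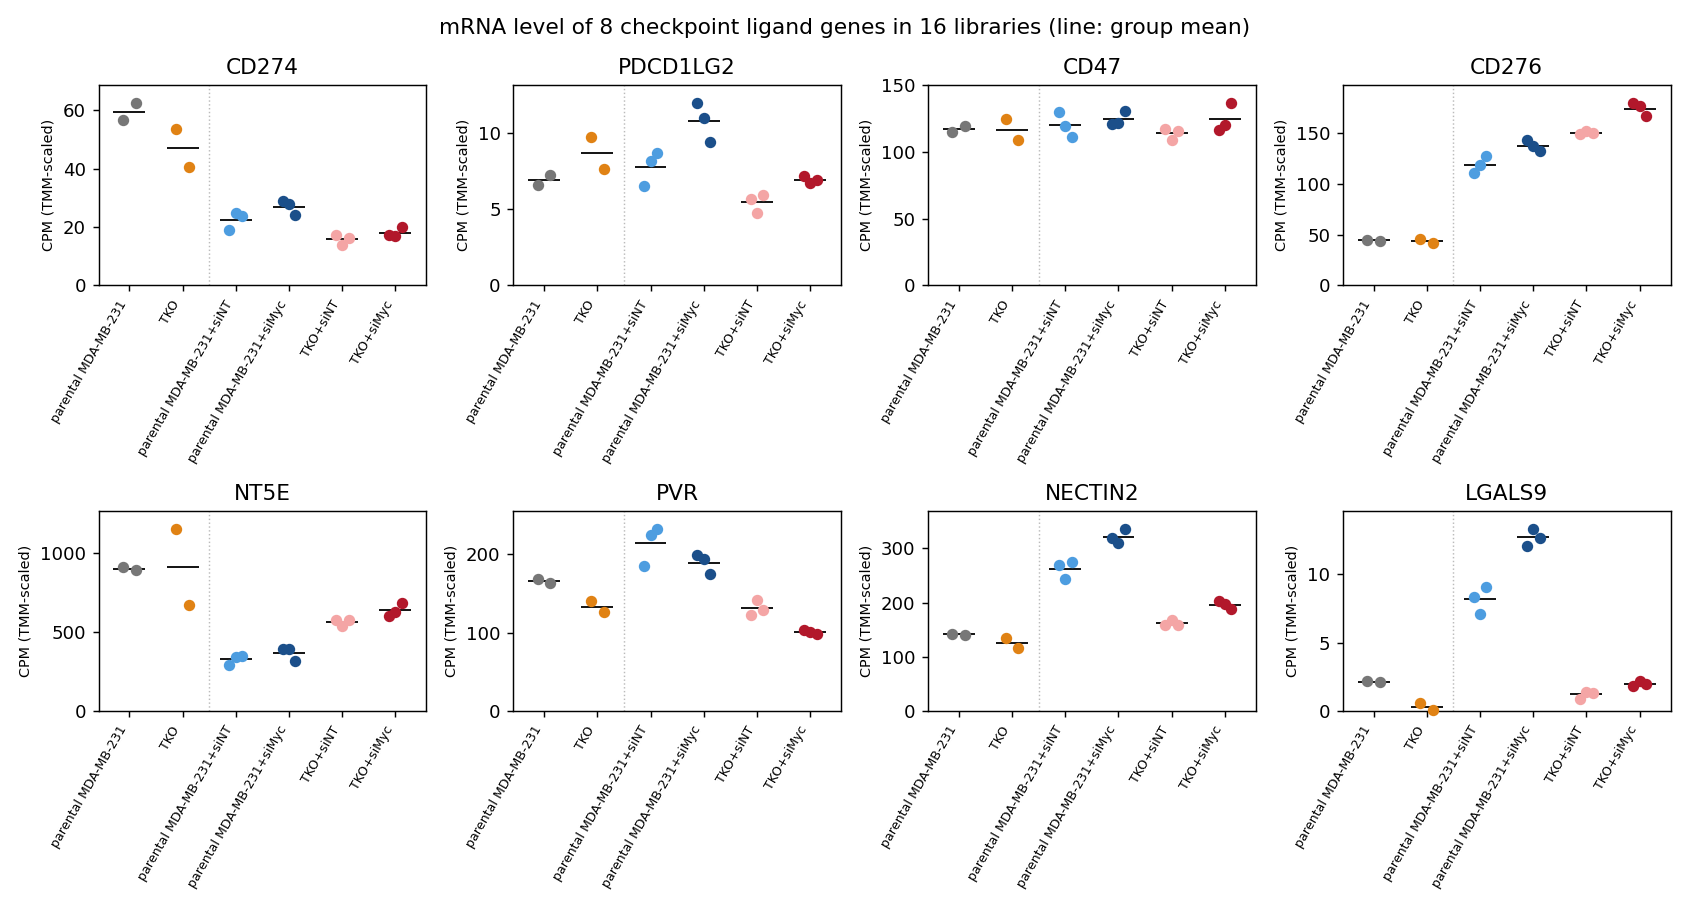
mRNA level in CPM (TMM-scaled, linear axes from 0) of the 8 genes in each of the 16 libraries, with one point per library and a line at the group mean; the dotted line separates untreated from siRNA groups. CD47 stayed near the same level in all 6 groups, CD276 was lower in the untreated groups, and LGALS9 was highest in the siRNA-treated parental groups.

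CD47 varied least. Its group means lay between 114 and 124 CPM, and every group overlapped the next in the order of levels. CD274 was at 56.6 and 62.4 CPM in parental MDA-MB-231, above the 53.5 and 40.4 of TKO, and both untreated groups lay above all siRNA groups, whose libraries ranged from 13.9 to 29.0. CD276 was instead lower in the untreated groups than in the siRNA groups. It was at 41.9 to 45.97 CPM in the 4 untreated libraries and at 110.3 to 179 in the 12 siRNA libraries, with no overlap between neighbouring siRNA groups. NT5E was at 910.3 and 887 CPM in parental MDA-MB-231, with TKO at 1149 in replicate 1 and 672 in replicate 2. PVR was lowest in TKO+siMyc (101 ± 2.20 CPM, SD, n = 3) and highest in parental MDA-MB-231+siNT (214 ± 25.2, SD, n = 3). NECTIN2 ran from 125 ± 12.7 CPM (SD, n = 2) in TKO to 321 ± 13.1 (SD, n = 3) in parental MDA-MB-231+siMyc, and no group overlapped the next.

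Untreated TKO was first compared with parental MDA-MB-231, to ask what differs in cells without TXNIP. CD274 was lower in both TKO libraries than in either parental library, with a log2 fold change of -0.35 (SE 0.15, adjusted p = 0.23). Its neighbour PDCD1LG2 was at 6.56 and 7.22 CPM in parental MDA-MB-231 and at 9.77 and 7.62 in TKO (0.33, SE 0.18, adjusted p = 0.338). PVR was at 169 and 164 CPM in parental MDA-MB-231 and at 140.1 and 126 in TKO. Its log2 fold change was -0.33 (SE 0.07) with an adjusted p of 0.0556. LGALS9 was at 2.19 and 2.14 CPM in parental MDA-MB-231 (43 counts in each library) and at 0.567 (exact 95% interval 0.330 to 0.907, 17 counts) and 0.0686 (0.00831 to 0.248, 2 counts) in TKO. The intervals cover counting error only, since without molecular identifiers several reads can stem from 1 molecule. Its log2 fold change was -2.75 (SE 0.77, adjusted p = 0.104).

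CD47 (-0.02, 95% interval -0.22 to 0.19), CD276 (-0.03, -0.23 to 0.18) and NT5E (0.01, -0.68 to 0.70) had log2 fold changes near 0, the last with replicates on either side of the parental level. With p-values from edgeR's quasi-likelihood fit, adjusted by Benjamini-Hochberg over 19965 genes, 0 of the 8 genes passed an adjusted p of 0.05, where 5.43% of all genes were called higher and 4.18% lower. PVR and LGALS9 had an unadjusted p under 0.05, as did 5164 of the 19965 genes, and DESeq2 called these 2. The groups did not overlap for 5 of the 8 genes, against 57.6% of all tested genes. Without TKO replicate 1, 5 of the 8 were called (CD274, NT5E, PVR, NECTIN2 and LGALS9, all lower), as were 7002 of 18714 genes. Without replicate 2, 4 were called (NT5E and PDCD1LG2 higher, PVR and LGALS9 lower), as were 6797 of 18859 genes. NT5E was thus called in opposite directions (-0.44 and 0.34), while LGALS9 was at -4.89 and -1.94 and CD274 at -0.58 and -0.17, the last not called. Without either parental replicate, 0 genes were called. In these fits the lone TKO library was assumed to vary as the parental libraries do.

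The effect of lowering Myc was then examined in TKO cells. After siMyc 5 of the 8 genes rose and 1 fell, against 13.3% and 13.9% of the 22450 genes tested, and the median log2 fold change was 0.17 for the 8 genes and 0.01 for all genes. PVR was the gene that fell. It was at 123, 142 and 129 CPM with siNT and at 103, 101.6 and 98.7 with siMyc, so the groups did not overlap. Its log2 fold change was -0.41 (SE 0.06, adjusted p = 7.98e-06), and its adjusted p stayed at or below 0.00834 under all alternatives. NECTIN2, which binds the same receptors, rose from 159, 169 and 159 CPM to 203, 196 and 189 (0.24, SE 0.05, adjusted p = 0.000864). CD276 rose from 149, 151 and 150.2 CPM to 179, 176 and 166 (0.18, SE 0.05, adjusted p = 0.00868). All siMyc libraries of NECTIN2 and CD276 lay above all siNT libraries.

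LGALS9 had the largest fold change among the 8, on few counts. It rose from 0.922, 1.41 and 1.35 CPM (33, 46 and 48 counts) to 1.84, 2.19 and 1.96 (65, 81 and 78 counts), with a log2 fold change of 0.67 (SE 0.19, adjusted p = 0.00883). Reads of LGALS9 can also fit its near-identical copies LGALS9B and LGALS9C, which held at most 22 and 10 counts in a library, and how such reads were divided is uncertain. PDCD1LG2 rose from 5.64, 4.77 and 5.95 CPM to 7.20, 6.72 and 6.91 (0.31, SE 0.10, adjusted p = 0.0294), and NT5E from 574, 540.2 and 575 to 602, 623 and 683 (0.14, SE 0.05, adjusted p = 0.0415). The proposed Myc targets did not pass the test. CD274 had a log2 fold change of 0.16 (95% interval -0.02 to 0.34, adjusted p = 0.185) and CD47 of 0.09 (-0.03 to 0.21, adjusted p = 0.284), and siMyc and siNT libraries overlapped for both.

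These changes were small beside the spread in some settings. In 1 fit of all 16 libraries, which called 2133 of 27033 genes after siMyc in TKO, only PVR of the 8 was called, and NECTIN2 (adjusted p = 0.0877), CD276 (0.231), LGALS9 (0.108), PDCD1LG2 (0.242) and NT5E (0.683) were not. Leaving out 1 library called 2 to 5 of the 8 and 4664 to 6923 of all genes, with 2 (PVR and NECTIN2) without TKO+siMyc replicate 2, 3 without TKO+siNT replicate 1 and 4 without TKO+siNT replicate 2.

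**Figure D2:**
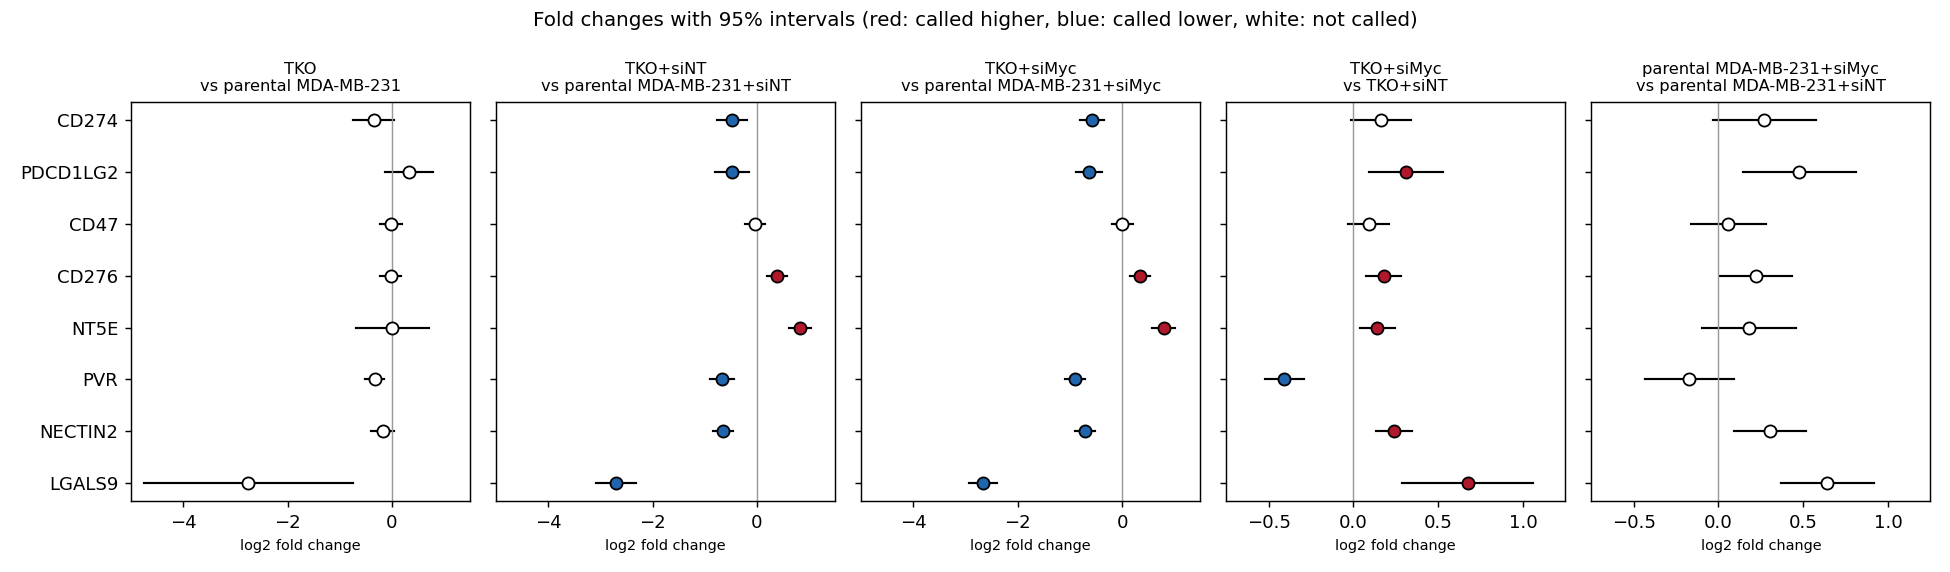
log2 fold changes (x axis, linear in log2) of the 8 genes in 5 comparisons, with 95% intervals from edgeR's quasi-likelihood fits; red points were called higher, blue lower and white not called at an adjusted p of 0.05. The 3 comparisons of TKO with parental MDA-MB-231 share one x range and the 2 siMyc comparisons another; PVR was the single gene left of 0 in both siMyc comparisons.

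In parental MDA-MB-231 cells, 0 of the 8 genes were called after siMyc when all 6 libraries were used (0.24% of 23728 genes were called higher and 0.354% lower). Of the 8, 4 had an unadjusted p under 0.05, as did 3463 of the 23728 genes, and DESeq2 called LGALS9. LGALS9 was at 8.38, 7.12 and 9.06 CPM with siNT and at 12.1, 13.3 and 12.7 with siMyc (0.64, SE 0.12, adjusted p = 0.0648). NECTIN2 was at 269, 243 and 274 CPM with siNT and at 319, 309.6 and 335 with siMyc (0.30, SE 0.09, adjusted p = 0.184). PDCD1LG2 was at 6.52, 8.19 and 8.67 CPM with siNT and at 11.95, 11.004 and 9.41 with siMyc (0.48, SE 0.14, adjusted p = 0.178). The groups did not overlap for these 3 genes and for CD276, that is for 4 of 8, against 21.3% of all tested genes. PVR was at 185, 225 and 233 CPM with siNT and at 199, 194 and 175 with siMyc, and these groups overlapped.

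These counts depended on the 2 libraries that stood apart. For PVR, CD274, PDCD1LG2, NT5E and CD276, replicate 1 was the lowest siNT library and replicate 3 the lowest siMyc library. Without these 2 libraries, 7 of the 8 genes were called, against 20.8% of 22445 genes. PVR was then lower after siMyc (-0.22, SE 0.05, adjusted p = 0.00348), and NECTIN2 (0.28, SE 0.06, adjusted p = 0.00252), LGALS9 (0.65, SE 0.11, adjusted p = 0.00084), PDCD1LG2 (0.44, SE 0.09, adjusted p = 0.00374), CD276 (0.19, SE 0.05, adjusted p = 0.0147), NT5E (0.18, SE 0.05, adjusted p = 0.0115) and CD274 (0.23, SE 0.07, adjusted p = 0.0235) were higher. With all 6 libraries and a factor for these 2, the same 7 genes were called, against 26.8% of 23728 genes. CD47 was not called in either fit (adjusted p = 0.392 and 0.356). Both fits were chosen once the data had been seen.

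The difference between the responses of TKO and parental MDA-MB-231 to siMyc was tested directly in the 12 siRNA libraries. For CD47 it was 0.06 (95% interval -0.20 to 0.32) and for CD274 -0.08 (-0.43 to 0.28) on the log2 scale. It was farthest from 0 for PVR, at -0.21 (-0.49 to 0.08). All 8 genes had an adjusted p of 1, and 0.0% of the 25812 genes were called by edgeR (1039 had an unadjusted p under 0.05, and DESeq2 called 6). Without the 2 libraries that stood apart the difference for PVR was -0.22 (SE 0.08, adjusted p = 0.345), and 0 of the 8 were called. Apart from that of LGALS9 (-0.39 to 0.50) and PDCD1LG2 (-0.52 to 0.25), the intervals of the 8 genes lay within -0.49 and 0.32.

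The populations were also compared with both carrying siRNA. With siNT, 5 of the 8 were lower and 2 higher in TKO, against 20.7% and 16.1% of 23310 genes. With siMyc the counts were again 5 and 2, against 21.7% and 18.8% of 23561 genes. These comparisons use the same siNT and siMyc libraries as the responses above, so they are not independent of them. LGALS9 differed most. It was at 7.12 to 9.06 CPM in parental MDA-MB-231+siNT and 0.922 to 1.41 in TKO+siNT, with a log2 fold change of -2.70 (SE 0.18, adjusted p = 7.37e-07), and of -2.66 (SE 0.13, adjusted p = 2.93e-09) with siMyc.

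PVR was at 185 to 233 CPM in parental MDA-MB-231+siNT and at 123 to 142 in TKO+siNT (-0.67, SE 0.11, adjusted p = 0.000554), and the difference was -0.90 (SE 0.09, adjusted p = 4.85e-06) with siMyc. NECTIN2 was at 243 to 274 CPM against 159 to 169 with siNT (-0.65, SE 0.09, adjusted p = 0.000139), and it was lower with siMyc too (-0.71, SE 0.09, adjusted p = 2.68e-05). The ligands of PD-1 were lower together. CD274 was at 19.0, 24.9 and 23.6 CPM in parental MDA-MB-231+siNT and at 17.1, 13.9 and 16.2 in TKO+siNT (-0.48, SE 0.13, adjusted p = 0.0131), and PDCD1LG2 had the same log2 fold change (-0.48, SE 0.15, adjusted p = 0.0232). With siMyc they were at -0.58 (SE 0.11, adjusted p = 0.000856) and -0.63 (SE 0.12, adjusted p = 0.000803).

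CD276 and NT5E were higher in TKO. CD276 was at 110.3 to 127 CPM in parental MDA-MB-231+siNT and at 149 to 151 in TKO+siNT (0.38, SE 0.09, adjusted p = 0.00545), and the difference was 0.34 (SE 0.09, adjusted p = 0.00637) with siMyc. NT5E was at 289.9, 343 and 346 CPM against 574, 540.2 and 575 with siNT (0.82, SE 0.10, adjusted p = 6.29e-05), and it differed by 0.80 (SE 0.10, adjusted p = 4.04e-05) with siMyc. CD47 did not pass the test, with -0.04 (95% interval -0.24 to 0.16) with siNT and 0.00 (-0.20 to 0.21) with siMyc. Without parental MDA-MB-231+siNT replicate 1 in the first comparison, or parental MDA-MB-231+siMyc replicate 3 in the second, 7 of the 8 genes were still called. In the siNT comparison, CD274 and PDCD1LG2 lost their calls without TKO+siNT replicate 2 or parental MDA-MB-231+siNT replicate 2. PDCD1LG2 also lost its call without TKO+siNT replicate 1 or parental MDA-MB-231+siNT replicate 3. The parental siRNA libraries were counted on a later annotation release than the TKO libraries. With siRNA, a difference between the populations thus cannot be told apart from this difference in release.

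NT5E moved together with the genes around it. Of the 42 genes with at least 1 CPM within 10 Mb of NT5E, 31 were higher and 3 lower in TKO+siNT, with a median log2 fold change of 0.61, and the median was 0.58 over 41 genes with siMyc. By library, the median of the surrounding genes lay 0.52 to 0.59 above the parental MDA-MB-231+siNT mean in the TKO+siNT libraries and NT5E itself lay 0.73 to 0.82 above. In the untreated cells the neighbours were at -0.01 in TKO replicate 1, where NT5E was at 0.35, and at -0.61 in replicate 2, where NT5E was at -0.42. Around the other 7 genes the medians lay between -0.13 and 0.11 in the 2 siRNA comparisons. The part of the surrounding region in the difference of NT5E was not tested.

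**Figure D3:**
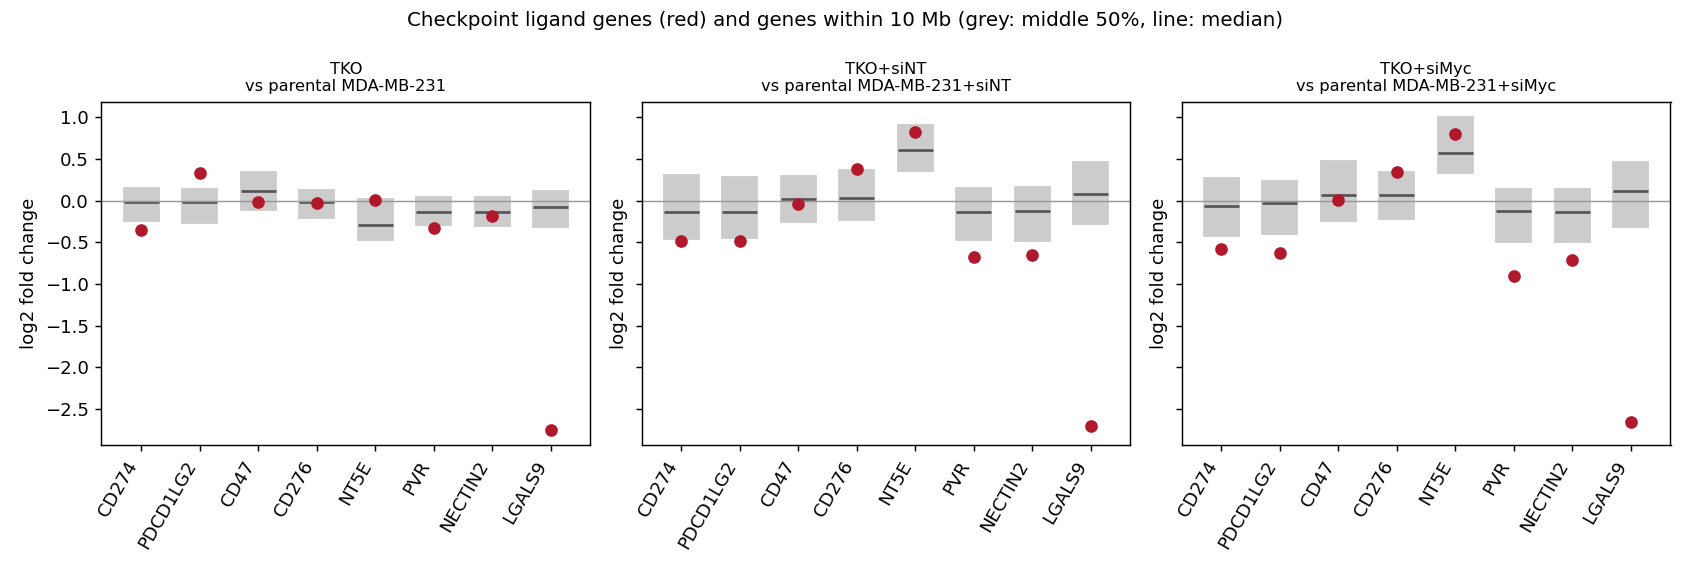
log2 fold changes of TKO against parental MDA-MB-231 (y axis) for each of the 8 genes (red) and for the genes with at least 1 CPM within 10 Mb of it (grey box for the middle 50%, line for the median), without siRNA, with siNT and with siMyc. The box around NT5E lies above 0 in both siRNA comparisons and mostly below 0 without siRNA, and LGALS9 lies far below its neighbours in all 3.

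The effect of the knockout differed between the untreated and the siNT-treated cells for 3 of the 8 genes, against 14.1% of 25112 genes, in a test that was added after the data had been seen. PDCD1LG2 was higher in untreated TKO and lower with siNT, a difference of 0.81 (SE 0.25, adjusted p = 0.0418). NECTIN2 differed by 0.48 (SE 0.14, adjusted p = 0.0349) and NT5E by -0.81 (SE 0.24, adjusted p = 0.0393), as did the median of the genes around NT5E (-0.87). For LGALS9 the difference was -0.04 (95% interval -1.07 to 0.99). Between 0 and 4 of the 8 genes were called when 1 library was left out, and between 1758 and 5065 of all genes. None of PDCD1LG2, NECTIN2 and NT5E was called without either parental MDA-MB-231 replicate or without any one TKO+siNT replicate. The presence of siRNA and the change from single reads to read pairs cannot be told apart here. The same holds for the later annotation release of the parental MDA-MB-231+siNT libraries.

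Other genes of the same pathways were counted from lists chosen by symbol. Of 26 other immune-regulating ligands, 21 could be tested in TKO after siMyc, and 7 rose and 2 fell, beside 13.3% and 13.9% of all genes. VSIR (VISTA) rose by 0.63 (SE 0.07, adjusted p = 2.74e-07), NECTIN3, a relative of NECTIN2 and PVR, by 0.44 (SE 0.06, adjusted p = 3.83e-06) and TNFRSF14, the ligand of BTLA, by 0.42 (SE 0.08, adjusted p = 0.000345). HMGB1, a nuclear protein that is an alarm signal when released, fell by 0.28 (SE 0.06, adjusted p = 0.00104), and NCR3LG1, which activates natural killer cells, fell by 0.64 (SE 0.22, adjusted p = 0.0339). In parental MDA-MB-231, 0 of 20 were called with all libraries, beside 0.24% higher and 0.354% lower of all genes. Between TKO+siNT and parental MDA-MB-231+siNT, 3 of 20 were higher and 6 lower, beside 16.1% and 20.7% of all genes. CEACAM1, a ligand of TIM-3, was higher by 2.49 (SE 0.15, adjusted p = 3.29e-07) and VSIR by 0.36 (SE 0.10, adjusted p = 0.0137). TNFSF9, the ligand of 4-1BB, was lower (-0.64, SE 0.11, adjusted p = 0.000903), and so were the galectin LGALS1 (-0.58, SE 0.14, adjusted p = 0.0073) and TNFRSF14 (-0.46, SE 0.11, adjusted p = 0.00549). With siMyc, CEACAM1 (2.24) and VSIR (0.45) were again higher, and LGALS1 (-0.70), TNFSF9 (-0.63) and the galectin LGALS3 (-0.40) lower, with adjusted p-values of 0.00388 or less. CEACAM1 and LGALS1 stood the other way without siRNA. CEACAM1 was at 0.879 CPM on average in parental MDA-MB-231 and 0.267 in TKO (-1.70, SE 0.91, adjusted p = 0.33), and its difference without siRNA minus that with siNT was -4.19 (SE 0.63, adjusted p = 0.000546). LGALS1 was at 0.29 (SE 0.06, adjusted p = 0.0537) without siRNA, and its difference was 0.87 (SE 0.21, adjusted p = 0.011). Without siRNA, where 5.43% of all genes were called higher and 4.18% lower, NECTIN3 was higher (0.35, SE 0.06, adjusted p = 0.0331), and TNFSF18, the ligand of GITR, was called lower (adjusted p = 0.00917), at 4.22 and 4.33 CPM in parental MDA-MB-231 against 0 and 0.0667 in TKO.

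The 21 genes on which the induction and turnover of PD-L1 depend split in direction. After siMyc in TKO, 5 rose and 1 fell, beside 13.3% and 13.9% of all genes. STAT2 rose by 0.70 (SE 0.06, adjusted p = 4.56e-08) and IRF9, its partner in the interferon response, by 0.53 (SE 0.12, adjusted p = 0.00221). BTRC, a ubiquitin ligase subunit that marks PD-L1 for destruction, rose by 0.23 (SE 0.06, adjusted p = 0.00489), and NFKB1 fell by 0.27 (SE 0.05, adjusted p = 0.000542). In TKO+siNT against parental MDA-MB-231+siNT, where CD274 was lower, 7 were higher and 6 lower, beside 16.1% and 20.7% of all genes. JAK1, the kinase of the interferon gamma receptor, was higher by 1.03 (SE 0.14, adjusted p = 0.000146), GSK3B by 0.65 (SE 0.11, adjusted p = 0.000873) and CMTM6, which protects PD-L1 from breakdown, by 0.49 (SE 0.08, adjusted p = 0.000748). IRF1, the factor that switches on CD274, was lower (-0.58, SE 0.08, adjusted p = 0.000246), as were IRF9 (-0.99, SE 0.15, adjusted p = 0.000374) and COPS5 (-0.47, SE 0.11, adjusted p = 0.00683), which removes ubiquitin from PD-L1. In the untreated libraries IRF1 ranged from 31.6 to 32.0 CPM in parental MDA-MB-231 and from 28.3 to 43.5 in TKO. JAK1 averaged 181 CPM in untreated parental MDA-MB-231 and 209 in untreated TKO, GSK3B 85.2 and 78.8, and CMTM6 204 and 214. IRF9 averaged 1.61 and 1.74 there, COPS5 41.6 and 49.7, STAT2 43.5 and 34.6, and JAK2 9.18 and 7.99. The part of these genes in the level of CD274 was not tested. With siMyc, where 18.8% of all genes were higher and 21.7% lower, the extremes were JAK1 (1.00), STAT2 (0.90) and GSK3B (0.60) above and IRF9 (-0.71), IRF1 (-0.62) and the kinase JAK2 (-0.48) below parental MDA-MB-231, with adjusted p-values of 0.0138 or less. In untreated TKO, NFKB1 (0.64) and STT3A (0.35) were higher and STAT3 (-0.57) was lower, with adjusted p-values between 0.0118 and 0.028.

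Among 13 genes of adenosine metabolism and sensing, 3 of 12 tested were higher and 3 lower in TKO+siNT, beside 16.1% and 20.7% of all genes. DPP4, which anchors adenosine deaminase at the cell surface, was at 2.53 to 3.61 CPM in parental MDA-MB-231+siNT and 32.8 to 35.8 in TKO+siNT (3.43, SE 0.14, adjusted p = 1.86e-08). The adenosine receptor ADORA1 was higher by 2.37 (SE 0.14, adjusted p = 2.46e-07) and the transporter SLC29A2 by 0.57 (SE 0.10, adjusted p = 0.00124). ENTPD3, which breaks down ATP upstream of NT5E, was lower (-2.53, SE 0.13, adjusted p = 1.34e-07), and the transporter SLC29A1 (-0.42, SE 0.08, adjusted p = 0.0017) and ADK, the adenosine kinase (-0.53, SE 0.10, adjusted p = 0.00169), were lower too. With siMyc these 6 genes were again called, from -2.92 for ENTPD3 to 3.52 for DPP4. After siMyc in TKO, where 13.3% of all genes rose and 13.9% fell, 3 of 11 rose, which were DPP4 (0.49, SE 0.06, adjusted p = 3.28e-06), ADORA1 (0.47, SE 0.10, adjusted p = 0.00142) and ENPP1, an ectoenzyme that makes AMP (0.17, SE 0.06, adjusted p = 0.035), and SLC29A1 fell (-0.20, SE 0.05, adjusted p = 0.00403). Without siRNA, SLC29A2 was higher (0.57, adjusted p = 0.0476) and the adenosine deaminase ADA lower (-1.21, adjusted p = 0.0317) in TKO. In the untreated libraries, ADORA1 averaged 1.68 CPM in parental MDA-MB-231 and 0.969 in TKO, ENTPD3 1.26 and 1.16, and SLC29A1 229 and 239. DPP4 averaged 0.680 and 3.10 there, and ADK 124 and 115. For the TKO effect without siRNA minus that with siNT, 3 of 12 genes were called above 0 and 2 below, beside 7.91% and 6.2% of all genes.

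With siRNA, partners of CD47 were called while CD47 itself was not. Of 5 genes in TKO+siNT, where 16.1% of all genes were higher and 20.7% lower, THBS1 (thrombospondin-1, a ligand of CD47) was higher by 1.59 (SE 0.14, adjusted p = 6.99e-06) and SIRPA, its receptor, by 0.74 (SE 0.17, adjusted p = 0.00493). CALR, the "eat me" protein that CD47 opposes, was lower (-0.40, SE 0.09, adjusted p = 0.00466), and so was QPCTL, the enzyme that modifies CD47 for binding to SIRPA (-0.52, SE 0.11, adjusted p = 0.00404). The same 4 were called with siMyc, THBS1 at 1.44, SIRPA at 0.37, CALR at -0.53 and QPCTL at -0.65. After siMyc in TKO, LRP1, the receptor of CALR, rose by 0.59 (SE 0.06, adjusted p = 7.78e-08) and THBS1 by 0.21 (SE 0.04, adjusted p = 0.000941), and QPCTL fell by 0.28 (SE 0.08, adjusted p = 0.00887). Of 12 receptors of checkpoint ligands, of these 8 and of others, 10 or 11 had a mean under 1 CPM in each group, with SIRPA as the receptor above it in all groups. Between TKO+siNT and parental MDA-MB-231+siNT, SIRPA, HAVCR2 and CTLA4 were called higher and CD96 lower, and the 3 other than SIRPA, which are named after their values were seen, had group means of 0.369 CPM or less in both groups, apart from CD96 in parental MDA-MB-231+siNT (1.30).

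**Figure D4:**
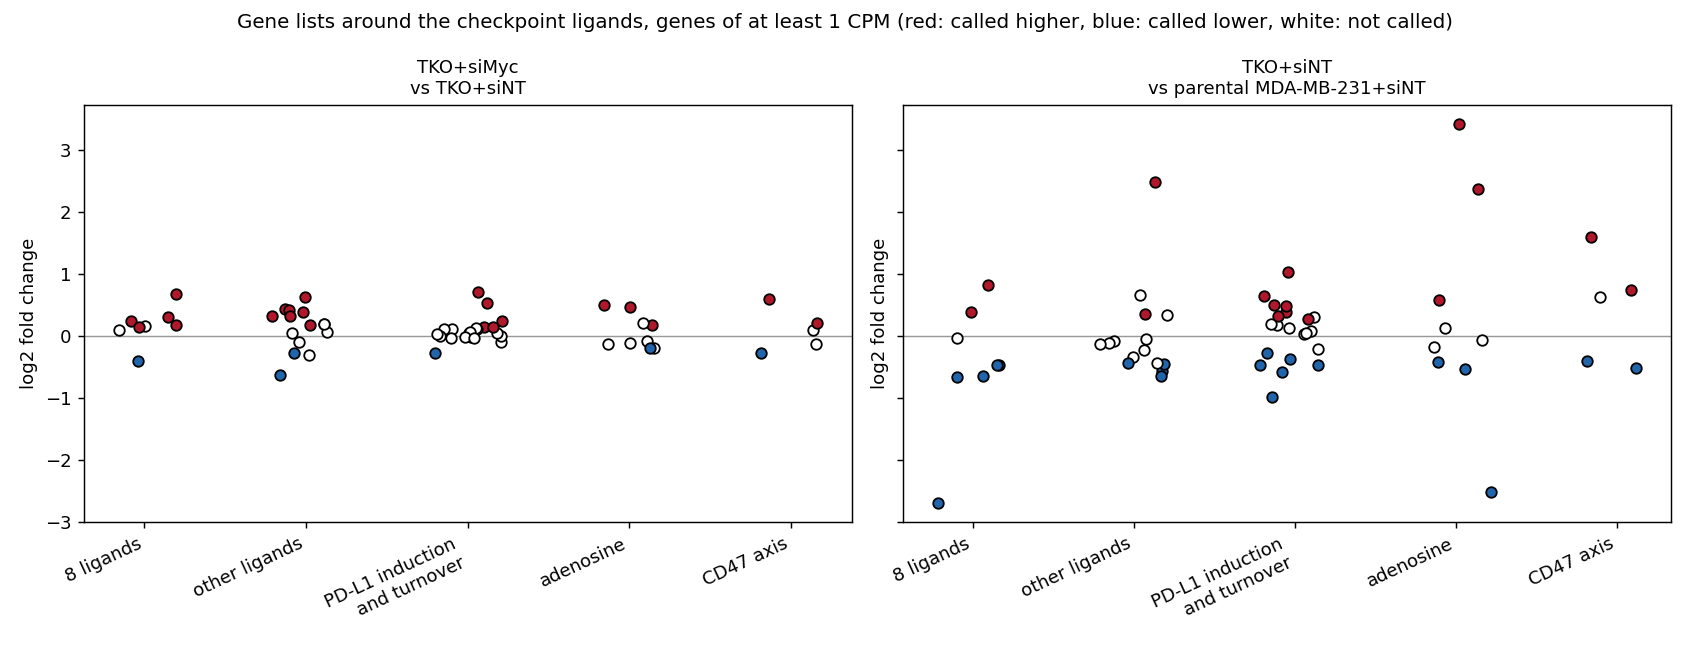
log2 fold changes (y axis) of the 8 ligands and of genes in 4 related lists with at least 1 CPM, after siMyc in TKO (left) and between TKO+siNT and parental MDA-MB-231+siNT (right); one point per gene, red called higher, blue called lower, white not called. The points on the left run from -0.64 for NCR3LG1 to 0.70 for STAT2, and those on the right from -2.70 for LGALS9 to 3.43 for DPP4.

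Across the 16 libraries, the genes whose log2 CPM was most like that of a ligand were found among 13448 genes with at least 1 CPM. They were SLC2A3 (r = 0.996), ADAM8 (0.993) and DHCR7 (0.992) for CD276, NIPSNAP1 (0.992), HTRA3 (0.990) and RARG (0.989) for NECTIN2, and PTGES (0.990), SYT17 (0.982) and B4GALNT3 (0.980) for LGALS9. For NT5E they were SERAC1 (0.985), UCA1 (0.984) and CDK19 (0.984), and for CD274 FSTL1 (0.984), ARHGAP29 (0.975) and MAP7D3 (0.974). PVR was most like EGR1 (0.968), ICAM5 (0.961) and HOXB9 (0.958). PDCD1LG2 reached 0.896 with ADGRF5, 0.894 with PRKCD and 0.886 with ANOS1, and CD47 0.843 with PPP1R2, 0.842 with ZNF226 and 0.799 with BET1. Among the 8 themselves, r was highest between NECTIN2 and LGALS9 (0.909) and lowest between CD274 and CD276 (-0.907), and it was 0.42 between the adjacent CD274 and PDCD1LG2. These values follow the differences between the 6 groups, including that between single reads and read pairs, and describe these 16 libraries only.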

How the data were processed

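RNA-seq was performed on 16 libraries of MDA-MB-231 cells. The authors aligned reads to GRCh38 with STAR and deposited raw counts per gene from featureCounts 1.6.3 (reverse strand, largest overlap), counting single reads in the untreated and read pairs in the siRNA libraries. Annotation was Ensembl release 102, or 104 for the siRNA-treated parental libraries, and comparisons across releases used the 60620 shared identifiers. The sum of deposited counts per library set the precision.

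Samples were grouped by their labels. Genes with more than 5 summed counts were fitted with edgeR 4.0.16 (TMM, robust quasi-likelihood test; R 4.3.3) over the libraries of each comparison, with Benjamini-Hochberg adjustment over all genes and a threshold of 0.05. The main fits were checked on simulated counts without outlying libraries, apart from the later-added fit of the difference between untreated and siNT-treated cells. DESeq2 1.42.0, its size factors, no filter, the replicate number as a block, 1 fit of all libraries and leaving out each library were the alternatives. Named genes were all 8 members, TXNIP and MYC, the 3 called genes with the highest and the 3 with the lowest fold change per list and comparison (mean of at least 1 CPM), and the 3 genes most like each member. Members and lists were chosen with earlier results of these data known. Results that rest on 1 further gene of the lists are not reported here.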

Additional observations from a re-analysis of the deposited data

Results flagged for a closer look

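The difference between TKO and parental MDA-MB-231 was itself different without siRNA and with siNT for 3 of the 8 genes, against 14.1% of 25112 genes, by the interaction test of edgeR over 10 libraries. The log2 difference without siRNA minus that with siNT was 0.81 for PDCD1LG2 (adjusted p = 0.0418), -0.81 for NT5E (adjusted p = 0.0393) and 0.48 for NECTIN2 (adjusted p = 0.0349). Over the alternatives, the adjusted p ran from 0.00451 to 0.183 for PDCD1LG2, from 6.85e-05 to 0.242 for NT5E and from 0.00277 to 0.15 for NECTIN2. The untreated libraries were single reads and the siNT libraries read pairs, which cannot be told apart from the siRNA. The same holds for the later annotation release of the parental MDA-MB-231+siNT libraries. Groups of 2 and 3 libraries were too small for a test of single outlying libraries.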

How the results depend on the processing

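With siNT and with siMyc, the counts of the 8 genes that differed between TKO and parental MDA-MB-231 kept within 1.5 times of 7 under all alternatives (5 to 7 and 7 to 7 with 1 library left out). In the untreated comparison, where 0 of the 8 were called, 1 was without a filter, 2 with the DESeq2 Wald test, 1 in 1 fit of all 16 libraries and 0 to 5 with 1 library left out. After siMyc in TKO the count of 6 became 1 in the fit of all 16 libraries and 2 to 5 with 1 library left out. In parental MDA-MB-231 the count of 0 became 1 without a filter and with the Wald test, 3 in the fit of all 16 libraries, and 7 both without the 2 libraries that stand apart and with a factor for them. The cause was not tested.

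Over all genes, the 1919 calls of the untreated comparison became 0 to 7002 with 1 library left out, and the 6106 after siMyc in TKO became 2133 in the fit of all 16 libraries. In parental MDA-MB-231 the 141 calls became 91 with DESeq2's size factors, 330 without a filter, 1110 with the Wald test, 1376 in the fit of all 16 libraries, 4673 without the 2 libraries, 6366 with the factor and 0 to 160 with 1 library left out. The difference between the siMyc responses had 0 calls, 6 with the Wald test, 63 without the 2 libraries and 147 with the factor.

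Same-numbered libraries did not deviate together throughout (r from -0.0893 to 0.201 between siMyc and siNT in TKO, and from -0.762 to 0.573 in parental MDA-MB-231), so the numbers were not used as pairs in the main fits. In parental MDA-MB-231 the libraries that stood apart enter these values, which therefore cannot exclude a pairing. With the replicate number as a block, the calls over all genes were 904 in the untreated comparison and 0 in parental MDA-MB-231 after siMyc, NT5E stood at -0.039 in the untreated comparison, and the counts among the 8 were as without the block, except that 1 in place of 3 remained called in the difference between untreated and siNT cells.

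Fold changes that turned sign lay near 0 or rested on single libraries. In the fit of all 16 libraries CD47 was at 0.058 and CD276 at 0.049 in the untreated comparison, and with siMyc the population difference of CD47 was -0.0085 without a filter and -0.0027 in that fit. Without the 2 libraries, the difference between the siMyc responses was -0.015 for CD47 and -0.011 for LGALS9. The difference between untreated and siNT cells was -0.0038 for CD47 with DESeq2's size factors and -0.0039 with the Wald test. With 1 library left out, the untreated fold changes ran from -0.12 to 0.067 for CD47, -0.44 to 0.34 for NT5E and -0.10 to 0.032 for CD276. For CD47 they ran from -0.075 to 0.037 with siNT and -0.061 to 0.049 with siMyc. The difference between siMyc responses ran from -0.15 to 0.044 for NT5E, -0.11 to 0.16 for LGALS9, -0.047 to 0.11 for CD47, -0.13 to 0.020 for CD276 and -0.13 to 0.012 for NECTIN2. The difference between untreated and siNT cells ran from -0.075 to 0.11 for CD47, -0.090 to 0.31 for CD274 and -2.21 to 0.77 for LGALS9. LGALS9 in untreated TKO rested on 17 and 2 counts, and its fold change ran from -4.89 to -1.94 with 1 library left out.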
